A study of Mus musculus with 3 samples.

Results

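Cartpt, Ppp1r17, Npy, Gal, Vip, Sst, Penk and Tac1 were followed through single-cell RNA from neuroblastoma of the TH-MYCN mouse. These 8 of the 31053 genes in the raw files were taken by name. They had been selected on measured values, namely their levels in earlier results of these data, as genes that set tumor cells apart from each other. Their levels in tumor cells and in the other cell classes are therefore given as a description, with no test.

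TH-MYCN mice carry a human MYCN transgene driven by the tyrosine hydroxylase promoter, so that the oncogene is switched on in catecholamine-producing cells of the sympathetic lineage. Every mouse was heterozygous for the transgene, and no mouse without it was included. One whole tumor came from each of 3 mice. The mouse of tumor 1 was 62 days old, that of tumor 2 was 79 and that of tumor 3 was 63, and the dissociated cells were captured on the 10x Genomics Chromium system with 3' chemistry. The 3 tumors form 1 group, and a value from 1 tumor has no replicate within that mouse.

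Neuropeptides are cut from longer precursor proteins inside secretory granules, packed beside catecholamines in sympathetic neurons and chromaffin cells, and released to act on receptors that are mostly coupled to G proteins. Sympathetic neurons are divided in part by the peptides they make: neuropeptide Y goes with the noradrenergic cells, and vasoactive intestinal peptide with the cholinergic ones. Neuroblastoma arises from the same lineage, and peptides such as neuropeptide Y and galanin are known from its cells. Cartpt encodes the precursor of the CART peptides. Npy, Gal, Vip and Sst encode neuropeptide Y, galanin, vasoactive intestinal peptide and somatostatin, Penk encodes the enkephalin precursor, and Tac1 encodes the precursor of substance P. Ppp1r17 is not a peptide gene: its product inhibits protein phosphatases and is best known from cerebellar Purkinje cells.

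Of the 3257, 4327 and 6038 barcodes of tumors 1, 2 and 3, 1914, 1221 and 2515 were kept by the authors, with medians of 4282.5, 1594 and 1816 unique molecular identifiers (UMIs). The libraries shared 1 to 8 barcodes pairwise, and at most 3 among kept cells. The rule for tumor-like cells was met by 7 of 22 clusters, each with at least 3 tumor markers raised, among them genes of the sympathetic lineage such as Hand2, Gata3, Th and Dbh and neuronal genes such as Stmn2 and Tubb3. They held 353, 942 and 2102 cells, which is 18.4%, 77.1% and 83.6% of the kept cells of tumors 1, 2 and 3, with medians of 934, 1542.5 and 1811.5 UMIs. The other 2253 kept cells fell into 11 named classes, the largest being 936 macrophage-like, 312 neutrophil-like and 262 T cell-like cells. The libraries stood apart in this: tumor 1 held few tumor-like cells of low depth, and tumors 2 and 3 held few cells of any other class.

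The members sit on 6 mouse chromosomes, and 3 of them, Npy, Ppp1r17 and Tac1, lie on chromosome 6. Promoters of 6 of the 8 were found in the RefSeq table for GRCm38.p6, and those of Ppp1r17 and Penk were not. Peptide genes are classic targets of cAMP signaling, so the 120 bases before each start were searched on both strands for the cAMP response element TGACGTCA, which 1.24% of 32851 promoters hold in a window of that length, and for its half-site TGACG, held by 11.7%. The full element includes the half-site on either strand. Cartpt and Sst held the full element, 112 and 48 bases before the start, Vip and Tac1 held the half-site alone, and Npy and Gal held neither. Starts here are those of RefSeq. By the gene bounds of GENCODE, the stretches of Cartpt, Sst and Tac1 lie inside the gene, and that of Vip before it. The 30 bases around each match are shown because they set a gene found in every tumor, Cartpt, beside a gene found in none, Sst. Capitals mark the matching letters. The strands and places are the minus strand at chr13:99900774-99900803 for Cartpt, the minus strand at chr16:23890874-23890903 for Sst, the plus strand at chr10:5639128-5639157 for Vip and the plus strand at chr6:7555007-7555036 for Tac1.
Cartpt: gcgggcatTGACGTCAaacggcagcggagc
Sst: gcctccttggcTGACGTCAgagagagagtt
Vip: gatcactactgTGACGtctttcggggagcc
Tac1: ctctacaggctCGTCAcgcctgagataaat

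Of the 8 genes, 3 were abundant in tumor-like cells: Ppp1r17, Cartpt and Npy. Levels are CPM, a gene's UMIs as a part of all UMIs summed over those cells and scaled to a common total, with no division by gene length since each molecule is counted once at its 3' end. They have exact Poisson intervals at 95%. Ppp1r17 stood at 196, 128 and 224 CPM in tumors 1, 2 and 3 (182 ± 49.6, SD, n = 3). It was the most even of the 3 between tumors. Cartpt stood at 45.3 CPM in tumor 1 (30.1 to 65.5), 22.2 in tumor 2 (15.9 to 30.2) and 183 in tumor 3 (170 to 197), a mean of 83.6 ± 87.0. Tumor 3 was far above the other two, and the intervals of tumors 1 and 2 just met, at 30.1 to 30.2. Npy stood at 19.4, 60.5 and 52.7 CPM (44.2 ± 21.8), with tumor 2 and tumor 3 overlapping and tumor 1 below both. All 12 Npy UMIs of tumor 1 came from 1 cell of 29305 UMIs.

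Gal was rare, at 3.24, 7.77 and 3.02 CPM, from 2, 14 and 12 UMIs. Tac1 gave 0, 2 and 4 UMIs in the tumor-like cells of tumors 1, 2 and 3, and Vip gave 1 UMI, in tumor 1. That Vip UMI lay in a cell of cluster 3 that also held 3 Cartpt UMIs. Penk had no UMI in tumor-like cells, with 0 of 3397, which allows a share of cells with a UMI of up to 0.0883% and sets no limit on cells that express it. Sst had no UMI in any of the 5650 kept cells, nor in any barcode that was not kept. By mean level the order was Ppp1r17, Cartpt, Npy and Gal, with Tac1 and Vip under 1 CPM, and Ppp1r17 was above Cartpt in 3 of 3 tumors with no overlap of their intervals within a tumor. Cartpt was above Npy in tumors 1 and 3 and below it in tumor 2.

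**Figure D1:**
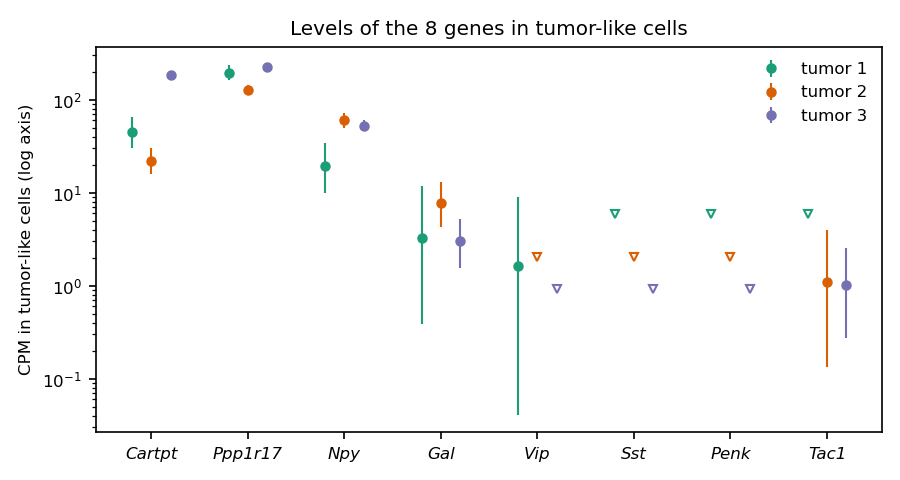
Level of each gene in the tumor-like cells of each tumor, in CPM on a log axis, with exact Poisson intervals at 95%; open triangles give the upper bound where no UMI was found. Ppp1r17, Cartpt and Npy lie above 19 CPM in every tumor, while Cartpt reaches 183 CPM in tumor 3 and 22.2 CPM in tumor 2.

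A cell's chance of showing a gene depends on its depth, so each tumor-like cell was also thinned to 500 UMIs. After thinning, Ppp1r17 was found in 9.35%, 6.90% and 11.0% of tumor-like cells of tumors 1, 2 and 3, against 74 of 353, 198 of 942 and 715 of 2102 cells before thinning. Cartpt was found in 1.42%, 0.955% and 8.99% of thinned cells, against 13, 32 and 600 cells before. Npy was found in 0.283%, 2.65% and 2.90%, against 1, 58 and 192 cells before. Most tumor-like cells thus held no UMI of a given member at these depths, and what such a cell expressed could not be read from it.

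The same genes were also met in cells of the other classes, in raw counts that are not corrected for ambient RNA. In tumor 3, Cartpt was at 223 CPM in B cell-like cells, 179 CPM in neutrophil-like cells, 148 CPM in plasmacytoid dendritic-like cells and 51.9 CPM in macrophage-like cells, beside 183 CPM in tumor-like cells. Over all classes other than tumor-like, Cartpt stood at 0.583, 7.47 and 75.4 CPM in tumors 1, 2 and 3, Ppp1r17 at 1.92, 48.0 and 75.4 CPM, and Npy at 0.333, 19.2 and 23.3 CPM. The share of these cells with a Cartpt UMI was 0.256%, 2.51% and 20.6%, at median depths of 5213, 1936 and 1871 UMIs, where tumor-like cells had 934, 1542.5 and 1811.5. After thinning, 0%, 0% and 4.84% held Cartpt, 0.0641%, 2.51% and 5.08% held Ppp1r17, and 0%, 1.43% and 2.18% held Npy. All 3 genes had a higher level in tumor-like cells in each tumor. The thinned shares of Npy overlapped within their intervals in each tumor. They were 1.72% to 3.89% in tumor-like cells and 0.392% to 3.63% in the others in tumor 2, and 2.23% to 3.71% and up to 4.10% in tumor 3. In tumor 1 a single thinned tumor-like cell held Npy. The intervals of Cartpt overlapped in tumor 2 as well. In these cases a difference in share was not detectable at this depth.

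UMIs per cell give the same comparison without dividing by the RNA of each class. In tumor 1, the other classes held 5.65%, 4.30% and 7.54% as many UMIs per cell of Cartpt, Ppp1r17 and Npy as tumor-like cells did. In tumor 2 these values were 59.1%, 66.1% and 55.8%, and in tumor 3 they were 65.8%, 53.8% and 70.6%. Tumor markers (Phox2a, Hand2, Gata3, Th, Dbh, Stmn2 and Tubb3), read the same way, gave 7.14% to 40.4% in tumor 1 (median 9.82%), 51.3% to 75.6% in tumor 2 (median 60.5%) and 47.7% to 76.3% in tumor 3 (median 61.7%). In tumors 2 and 3 each of the 3 genes fell within the range of the markers, and in tumor 1 Npy did, while Cartpt and Ppp1r17 fell under it. Gal, from 14 and 12 UMIs in tumor-like cells and 1 in the others, lay below the range in tumors 2 and 3, at 24.1% and 42.4%.

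**Figure D2:**
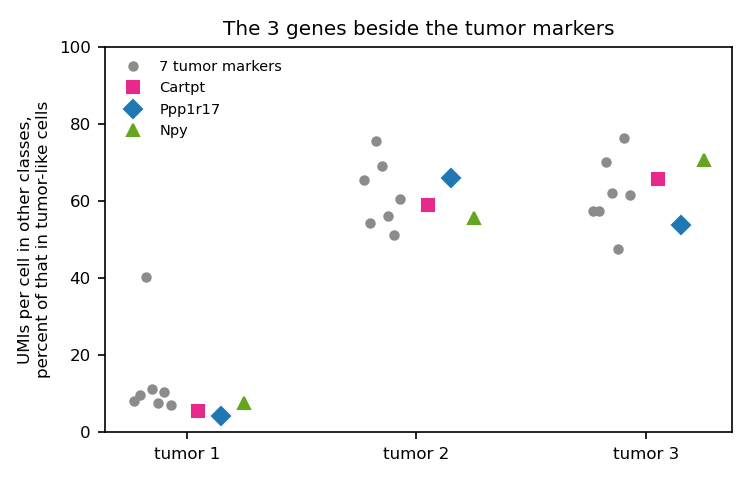
UMIs per cell in all classes other than tumor-like, as a percent of the UMIs per cell in tumor-like cells, for Cartpt, Ppp1r17 and Npy (colored) and 7 tumor markers (gray) in each tumor. The colored points lie between 4.30% and 7.54% in tumor 1 and between 53.8% and 70.6% in tumors 2 and 3, beside the markers of the same tumor.

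Within tumor 3, several classes could not be told from tumor-like cells by Cartpt in raw counts. Counts corrected for ambient RNA are given in this report for tumor-like cells only. Tumor-like cells held 0.346 Cartpt UMIs per cell (0.321 to 0.372), B cell-like cells 0.346 (0.158 to 0.657), neutrophil-like cells 0.364 (0.157 to 0.717) and endothelial-like cells 0.324 (0.168 to 0.567). Macrophage-like cells held 0.191 (0.133 to 0.266) and T cell-like cells 0.147 (0.0705 to 0.270), both below tumor-like cells. In tumor 2, neutrophil-like cells held 0.296 Ppp1r17 UMIs per cell (0.169 to 0.481) and tumor-like cells 0.244 (0.214 to 0.278). In tumor 1 the classes were well apart: 0.343 Ppp1r17 UMIs per tumor-like cell and 0.0171 per macrophage-like cell. Of the 3 libraries, tumor 1 had the widest gap between tumor-like and other cells for Cartpt, Ppp1r17 and Npy.

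**Figure D3:**
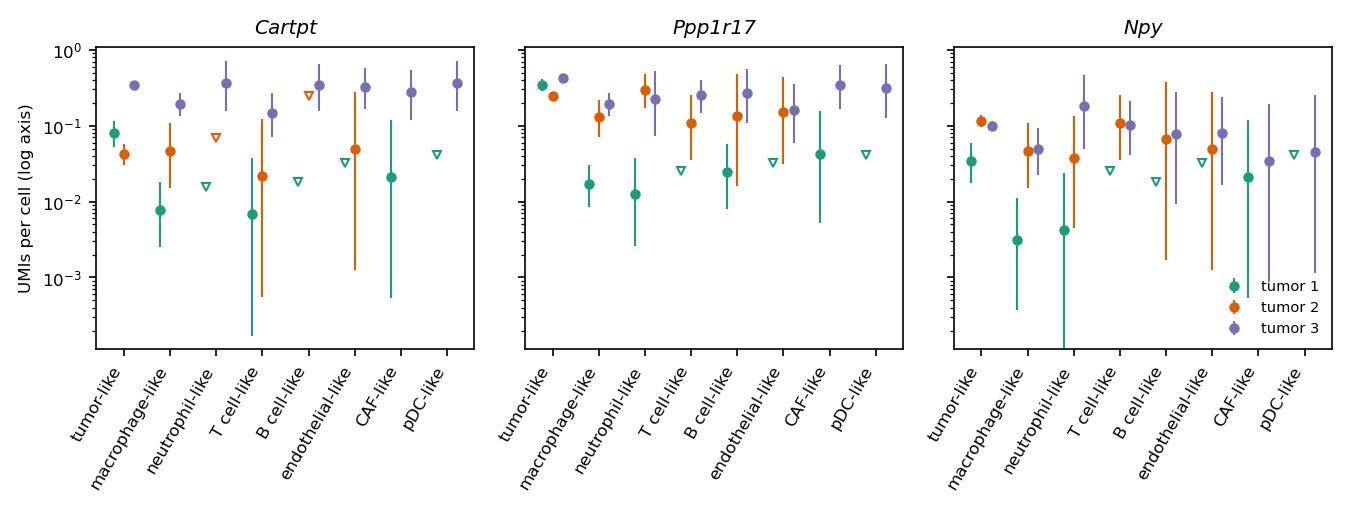
UMIs per cell of Cartpt, Ppp1r17 and Npy by class and tumor, on a log axis, for classes of at least 10 cells in a tumor, with exact Poisson intervals at 95%; open triangles give the upper bound where no UMI was found. In tumor 3 the intervals for Cartpt in B cell-like, neutrophil-like and endothelial-like cells cover the 0.346 UMIs per cell of tumor-like cells, and in tumor 1 tumor-like cells lie above the other classes for Ppp1r17.

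Penk showed the opposite pattern. Of its 39 UMIs in kept cells, 35 lay in cells like cancer-associated fibroblasts (CAF-like), which are marked here by collagen genes and Dcn. In tumor 1, 5 CAF-like cells held 31 of them, with 19 and 9 in single cells of 31579 and 41963 UMIs. In tumor 2, 1 CAF-like cell held 4, and in tumor 3 none was found in 29 CAF-like cells. The remaining 4 UMIs lay in 1 macrophage-like and 2 T cell-like cells. Summed over the 85 CAF-like cells Penk was at 30.4 CPM (21.2 to 42.3), but it rested on 6 cells, and 2 of those in tumor 1 held most of it.

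The name given to these genes, markers of tumor cell states, was checked in clusters of tumor-like cells formed without the members. In tumor 3, which had more tumor-like cells than the other two, Cartpt ranged from 164 to 221 CPM over the 7 tumor-like clusters, and Ppp1r17 from 186 to 257 CPM. The intervals of the lowest and the highest cluster overlapped for both genes. The other tumors had fewer UMIs. In tumor 2, Cartpt had 40 UMIs in all, with 15 in cluster 2, 13 in cluster 5 and none in the 115 cells of cluster 1. In tumor 1, cluster 5 held 16 of 28 Cartpt UMIs in 4 cells, 1 of which held 11. Ppp1r17 in tumor 1 was at 28.9 CPM in cluster 2 (0.732 to 161) and at 263.6 CPM in cluster 3 (202 to 339), which did not overlap. Over the 6 larger clusters, Cartpt was highest in cluster 5 in tumor 1, cluster 2 in tumor 2 and cluster 4 in tumor 3, and Ppp1r17 in cluster 3 in tumor 1 and cluster 1 in tumors 2 and 3. Cluster 1, which had Ppp1r17 and Cartpt at the head of its leading genes by fold over all kept cells, stood at 33.1, 0 and 185 CPM for Cartpt in tumors 1, 2 and 3. Its Ppp1r17 level was 165, 148 and 251 CPM, against 196, 128 and 224 CPM in all tumor-like cells. No cluster was thus highest in Cartpt, or in Ppp1r17, in every tumor, and tumor 1 had 28 Cartpt UMIs in all. For these genes the clusters of kept cells gave no state that they marked in all 3 tumors, and the genes are called here by their symbols.

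Npy was the exception in tumor 2. It stood at 135 CPM in cluster 2, which was led by Chga and Chgb, the genes of the granule proteins chromogranin A and B, and at 94.0 CPM in cluster 1, against 13.1 to 39.7 CPM in clusters 0, 3, 4 and 5. Cluster 2 had 59 of the 109 Npy UMIs of tumor 2, in 19 of its 252 cells, and 4 of these cells held 5 to 21 each. In tumor 3 the highest Npy level was also in cluster 2, at 74.7 CPM, against 23.4 to 61.4 CPM in the others. Its interval there reached below the 61.4 CPM, so cluster 2 was not set apart from the next cluster. Cluster 2 also had a median mitochondrial share of 8.80%, the highest of the 7, and cluster 5, with Npy at 37.0 and 38.4 CPM in tumors 2 and 3, had 8.48%.

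**Figure D4:**
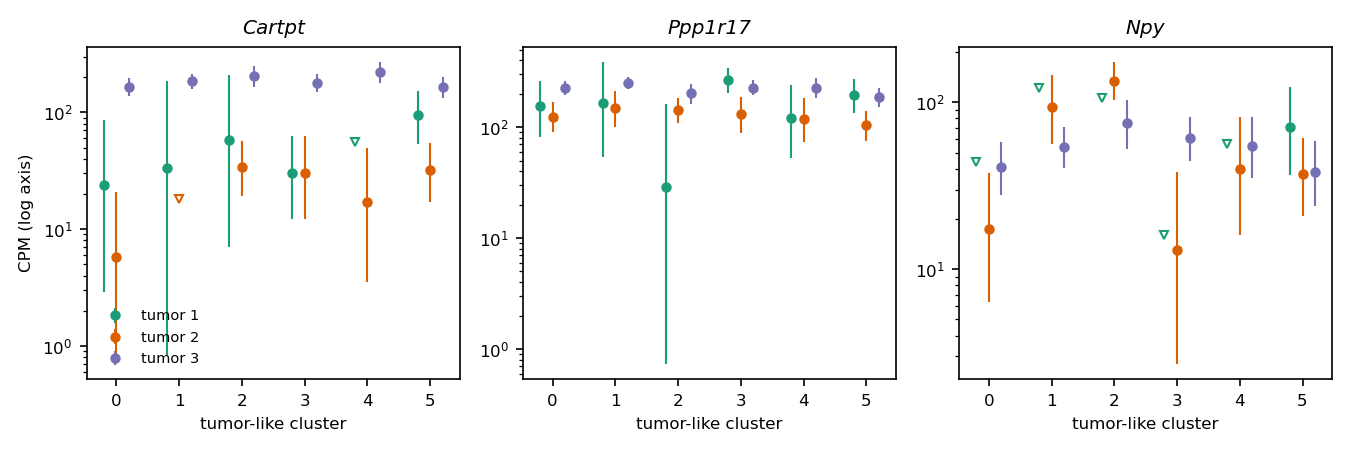
Level of Cartpt, Ppp1r17 and Npy in the 6 tumor-like clusters of more than 300 cells, by tumor, in CPM on a log axis with exact Poisson intervals at 95%; open triangles give the upper bound where no UMI was found. Ppp1r17 in tumors 2 and 3 and Cartpt in tumor 3 lie nearly flat over the clusters, and the Npy of tumor 2 peaks in cluster 2 at 135 CPM.

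Thinned counts per cell gave no sign of unevenness for Ppp1r17, and were uneven for Npy in tumor 2. The variance of thinned counts over their mean, which is 1 for UMIs scattered at random, was 1.02, 1.02 and 0.976 for Ppp1r17 in the tumor-like cells of tumors 1, 2 and 3. For Cartpt it was 1.32, 0.991 and 1.02, with 6 and 9 thinned UMIs behind the values of tumors 1 and 2. For Npy it was 2.14 in tumor 2 and 1.06 in tumor 3. The Ppp1r17 values rested on 35, 68 and 242 thinned UMIs in tumors 1, 2 and 3. With so few per cell, a value near 1 does not show that the cells were alike. Before thinning, 4 tumor-like cells of tumor 1 with 5 or more Ppp1r17 UMIs held 25 of its 121. These cells had 3599 to 37710 UMIs in all. In tumor 3 no tumor-like cell held more than 4 Cartpt or Npy UMIs, although 727 and 209 were counted. In tumor 2, 6 cells with 5 to 21 Npy UMIs held 53 of the 109, and 4 of the 6 were in cluster 2. One of them, of 1426 UMIs in all, had 21 Npy UMIs, and another had 9 Npy and 2 Tac1 UMIs.

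The pairs among Cartpt, Ppp1r17 and Npy were found together in tumor 3 at ratios to the product of their shares whose intervals include 1. Thinned to 500 UMIs, 16 cells held both Cartpt and Ppp1r17, and the product of the shares gives 20.8, a ratio of 0.770 (0.440 to 1.25). At 1000 UMIs 74 cells held both against 71.0, a ratio of 1.04 (0.819 to 1.31). Cartpt and Npy were together in 3 cells against 5.48 at 500 UMIs and in 12 against 18.3 at 1000, where the ratio was 0.655 (0.338 to 1.14). Ppp1r17 and Npy were together in 9 cells against 6.70 at 500 UMIs, a ratio of 1.34 (0.614 to 2.55), and in 19 against 22.7 at 1000, a ratio of 0.837 (0.504 to 1.31). In tumors 1 and 2 at most 1 thinned cell held both genes of any of these 3 pairs at 500 UMIs, so that nothing could be read there.

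The one member with enough cells in each tumor for a comparison of other genes was Ppp1r17. Thinned tumor-like cells with a UMI of it numbered 33, 65 and 231 in tumors 1, 2 and 3, and those without it 320, 877 and 1871. Among 5740 genes none was higher in cells with Ppp1r17 (0% called) and 6 were lower (0.105% called) at an adjusted p under the threshold of 0.05, by edgeR's quasi-likelihood test with the tumor as a block. At a p under 0.05 before adjustment, 83 were higher and 119 lower. The 6 were Hba-a1, Hba-a2, Hbb-bs and Hbb-bt, which encode globin chains of red blood cells, and the long noncoding RNAs Malat1 and Meg3. Malat1, Meg3 and Hbb-bs fell outside the rule for named genes and were chosen after their values were seen.

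Hbb-bt was lower by a log2 fold change of -1.35 (SE 0.222, adjusted p = 0.000248), Hba-a1 by -1.26 (SE 0.168, adjusted p = 2.52e-06) and Hba-a2 by -1.04 (SE 0.171, adjusted p = 0.000248), each in 3 of 3 tumors. Hbb-bs was lower in 2 tumors and higher in 1. Hba-a1 averaged 235 CPM in cells with Ppp1r17 and 564 CPM in those without. Malat1, a nuclear RNA, averaged 3324 CPM with and 6218 CPM without, a log2 fold change of -0.87 (edgeR adjusted p = 9.40e-08). Without tumor 1 the globin genes were no longer called, and Meg3 and Malat1 were the only 2 genes that were. With cells thinned to 1000 UMIs, Hbb-bt, Hba-a1 and Hba-a2 were not called, and the 4 genes that were are Hbb-bs, Kcnq1ot1, Meg3 and Malat1. The erythroid-like class, in which globin genes lead, held 28 kept cells. Hba-a1 and Hba-a2, and the Hbb pair, are near-identical copies whose UMIs the counting may have split. With no tumor block 0 genes were called in either direction, where 16 and 40 had a p under 0.05 before adjustment, and DESeq2 called 1, Malat1, where 6 and 13 did.

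The lists drawn up to describe tumor cell states gave no call in that comparison. None of 18 S phase genes, 18 genes of G2 and mitosis, 6 measured granule genes or 10 neurite genes passed the threshold, and their median log2 fold changes were -0.03, 0.12, 0.05 and -0.01, beside -0.01 for all genes tested. No measured gene of the catecholamine, cholinergic, chromaffin, immediate early and hypoxia lists, or of the lists for macrophages, neutrophils, B cells and endothelium, passed it either. Cartpt and Npy, the members measured, had a median of -0.08 and did not pass. Cells with and without a Ppp1r17 UMI had medians of 1797 and 1812 UMIs in tumor 3, 1608 and 1540 in tumor 2, and 1383 and 914 in tumor 1.

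The machinery that makes, senses and degrades peptides was compared between tumor-like cells and the unweighted mean of the other classes. Counts were summed per tumor and class, and a sum needed at least 10 cells, so not every class had a sum in each tumor. NK cell-like, mesothelial-like and plasma cell-like sums came from tumor 1 alone. CAF-like and plasmacytoid dendritic-like sums came from tumors 1 and 3, and erythroid-like sums from tumors 2 and 3. Tumor and class are thus partly mixed in that mean. The fit had no tumor block, so sums of classes from 1 mouse were taken as independent. Of 9997 genes tested by edgeR's quasi-likelihood test, 2890 were higher in tumor-like cells (28.9% called) and 146 lower (1.46% called). This split turned with the scaling: DESeq2 called 181 higher and 1849 lower, and with all other kept cells of a tumor summed into 1, an alternative chosen after seeing the data, edgeR called 967 higher and 2703 lower. The median log2 fold change of all genes moved with it, from 0.56 to -0.54 and -0.02. Fold changes of the lists below are to be read against the 0.56.

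Of 9 processing genes 7 passed the filter on low counts and 4 were higher, beside 28.9% of all genes tested. They were Pcsk2, the prohormone convertase of neuroendocrine granules, Pcsk1n and Scg5, whose products act on the convertases, and Cpe. Cpe encodes the carboxypeptidase that trims the cut peptides. Scg5 averaged 85.3 CPM in tumor-like cells and 13.9 CPM over the other classes, with a log2 fold change of 4.63 (SE 0.857, edgeR adjusted p = 0.00137). Pcsk2 averaged 16.0 and 3.42 CPM (4.56, SE 0.989, edgeR adjusted p = 0.00270), and Pcsk1n 239 and 74.2 CPM (4.31, SE 1.26, edgeR adjusted p = 0.0123). Cpe averaged 73.6 and 58.9 CPM, with 279.6 CPM in mesothelial-like cells, and Pcsk2 was at 16.5 CPM in B cell-like cells. Each of the 4 was higher in 3 of 3 tumors. Under DESeq2 all 4 kept a positive fold change, 3 were not called and Pcsk2 had no adjusted p. Scg5 was still called with each tumor left out in turn, and of the others Pcsk1n was lost without tumor 2, Pcsk2 without tumor 1 or 3 and Cpe without tumor 1 or 2. At a clustering resolution of 0.5 Pcsk1n was not called. The fit averages the classes on a log scale, and its fold changes exceed those of the mean CPM. With the other cells summed, the log2 fold changes were 3.48 for Pcsk2, 1.73 for Pcsk1n, 2.43 for Scg5 and 0.60 for Cpe. Pcsk2 alone was then called higher, while Furin and Cpd were called lower. Pcsk1, the other neuroendocrine convertase, had no UMI in these sums.

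Few UMIs of the receptors for the members' peptides were found. Of 22 receptor genes 15 had a UMI in these sums and only Adcyap1r1 passed the filter. Adcyap1r1, which encodes a receptor for PACAP that also binds vasoactive intestinal peptide, averaged 26.6 CPM in tumor-like cells and 6.51 CPM elsewhere (log2 fold change 4.03, edgeR adjusted p = 0.00525), higher in 3 of 3 tumors. It did not pass the filter without tumor 1, and edgeR's adjusted p was 0.0529 when the other cells were summed. The Npy receptor genes Npy1r, Npy2r, Npy4r, Npy5r and Npy6r had 5, 0, 3, 1 and 0 UMIs, and Galr1, Galr2 and Galr3 had 0, 0 and 2. Of 3 peptidases 2 passed the filter, Dpp4 and Ece1, and neither was called, though DESeq2 and the summed cells called Ece1 lower.

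Of 33 other precursor genes 22 had a UMI and 8 passed the filter. Of these 8, 3 were called higher, beside 28.9% of all genes tested, and so small a count does not set the list apart from that share. The 3 were Pomc, Nppc and Edn3, the precursors of the melanocortins and opioids of the pituitary, of a natriuretic peptide and of an endothelin. Nppc and Edn3 had 21 and 29 UMIs in the sums. Pomc averaged 8.77 and 4.15 CPM, Nppc 2.67 and 2.14 CPM, and Edn3 2.86 and 3.06 CPM, in tumor-like and other cells. Edn3 was thus lower by its mean CPM and higher by the fit (log2 fold change 2.71), which averages logs over classes of which some had no UMI. Pomc and Nppc were higher in 2 of 3 tumors and Edn3 in 1. With the replicate block edgeR's adjusted p was 0.105, 0.0664 and 0.0599 for Pomc, Nppc and Edn3, so none of the 3 was called there, and Adm was. None of the 3 was called with any 1 tumor left out.

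Barcodes that the authors did not keep held more UMIs of Cartpt, Ppp1r17, Npy and Gal than kept cells did in tumors 2 and 3. They lie outside the kept cells described so far and were looked at after the values of those cells were known. They numbered 1343, 3106 and 3523 in tumors 1, 2 and 3, with medians of 925, 5351.5 and 3703 UMIs, so that in tumors 2 and 3 they were deeper than kept cells. As a part of all their UMIs, Ppp1r17 stood at 64.0 and 104 CPM in the removed barcodes of tumors 2 and 3. That is below its level in kept tumor-like cells in both. Cartpt, at 34.2 and 147 CPM, and Gal, at 18.0 and 1.21 CPM, were above that level in tumor 2 and below it in tumor 3. These levels are over removed barcodes of every kind, not tumor-like ones alone. Their median mitochondrial share was 35.0% and 37.7% in tumors 2 and 3, against a median of at most 8.80% in any kept tumor-like cluster. The levels compared thus have unlike bases, and their directions may depend on that. No level without mitochondrial UMIs is given. Mitochondrial UMIs made up at least 20% in 78.6%, 93.3% and 92.3% of the removed barcodes of tumors 1, 2 and 3, and 3 or more tumor markers were found in 24, 2382 and 2295.

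Npy had 3210 UMIs in the removed barcodes of tumor 2, 591 in those of tumor 3 and 1 in those of tumor 1, beside 109, 209 and 12 in kept tumor-like cells of tumors 2, 3 and 1. Its level there was 168 CPM in tumor 2 and 39.9 CPM in tumor 3, above the 60.5 CPM of kept tumor-like cells in the former and below the 52.7 CPM in the latter. Here too the levels have unlike bases, being over removed barcodes of every kind with high mitochondrial shares. In tumor 2, 49 barcodes with 5 or more Npy UMIs held 2789 of them (86.9%), and the 2 highest had 311 and 250. In tumor 3, 15 such barcodes held 261 (44.2%), with 88 and 43 in the highest. Thinned variance over mean was 5.53 and 1.41 in the removed barcodes of tumors 2 and 3. Npy thus was found in few barcodes at high counts, and in most at none.

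Cartpt had 653 and 2185 UMIs in the removed barcodes of tumors 2 and 3. In tumor 3, 32 barcodes with 5 or more held 846 UMIs (38.7%), with 274 and 132 in the highest, while 760 barcodes held a single one. In tumor 2, 28 barcodes held 335 of the 653 (51.3%), with a highest count of 37. Gal, at 343 UMIs, was found in 231 removed barcodes of tumor 2, with a highest count of 8, and had 18 UMIs in tumor 3 and 1 in tumor 1. Ppp1r17, with 1221 and 1546 UMIs, had highest counts of 11 and 24, and its barcodes of 5 or more held 6.39% and 10.1% of it. The thinned variance over mean in tumors 2 and 3 was 1.45 and 1.05 for Cartpt and 1.01 and 0.995 for Ppp1r17, so that this measure set the genes apart in tumor 2 and hardly in tumor 3.

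**Figure D5:**
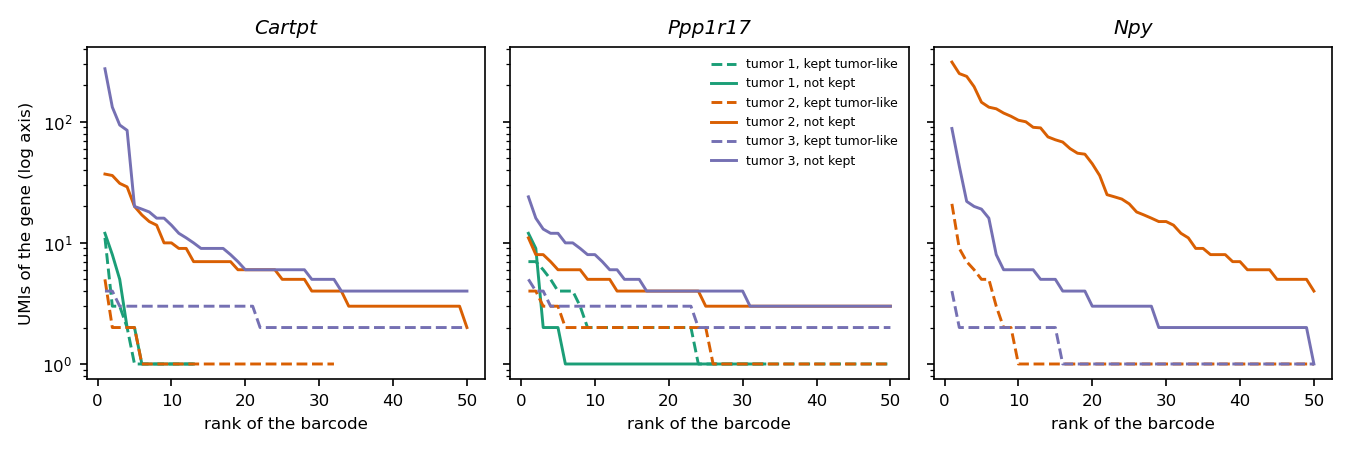
UMIs of Cartpt, Ppp1r17 and Npy in the 50 barcodes with the most, by rank, on a log axis, for kept tumor-like cells (dashed) and barcodes not kept by the authors (solid); barcodes without a UMI are not drawn. Npy in tumor 2 falls from 311 over the removed barcodes, while no kept tumor-like cell exceeds 21.

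The removed barcodes rich in Npy differed in other genes from those with none. Among barcodes with at least 3 tumor markers, the granule list (Chga, Chgb, Scg2, Scg3, Vgf, Syt1 and Syt4) had a median of 13947 CPM per barcode in the 48 of tumor 2 with 5 or more Npy UMIs, and 3001 CPM in the 2071 with none. In tumor 3 the medians were 10722 CPM in 15 and 1672 CPM in 2079. The catecholamine list, which includes Th and Ddc, had medians of 1492 against 284 CPM in tumor 2 and 1358 against 269 CPM in tumor 3. The G2 and mitosis list went the other way, at 547 against 2102 CPM and 895 against 2168 CPM, as did the S phase list, at 498 against 1294 CPM and 579.9 against 1326 CPM. The chromaffin list had 5937 against 2095 CPM and 3494 against 1044 CPM. It shares Chga with the granule list and Slc18a1 and Pnmt with the catecholamine list, so it is not a separate measure. Both tumors thus had high granule and catecholamine levels and low mitotic levels in Npy-rich barcodes. The 2 sets had median depths of 8736 and 5813 UMIs in tumor 2 and 6398 and 4022 in tumor 3, and median mitochondrial shares of 35.2% in both sets of tumor 2 and 38.3% and 38.1% in tumor 3. The CAF list summed to 1350 against 112 CPM in tumor 3 and 54.6 against 78.8 CPM in tumor 2, with a median of 0 in every set. The part of depth and of other cells' RNA in these differences was not tested.

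Cartpt-rich removed barcodes did not repeat this from tumor to tumor. The granule list had a median of 5311 CPM in the 26 barcodes of tumor 2 with 5 or more Cartpt UMIs against 3150 CPM in the 2154 with none, and 1880 against 1718 CPM in tumor 3. The G2 and mitosis list had 1199 against 2045 CPM in tumor 2, and 2802 against 2157 CPM in tumor 3, where the set held 31 and 1557 barcodes. Its direction thus turned between the tumors. Summed over the set, Npy stood at 3373 CPM in the Cartpt-rich barcodes of tumor 2 and at 64.5 CPM in those of tumor 3. Unlike the medians above, these are sums, which a few barcodes can carry, and they have no value of the barcodes without Cartpt beside them.

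Cartpt and Npy shared barcodes in tumor 2. Of its removed barcodes, 11 had 5 or more UMIs of each, where the product of the shares gives 0.442, and after thinning to 1000 UMIs 11 held both against 2.73 (ratio 4.03, 2.01 to 7.21). In tumor 3, 2 had 5 or more of each, against 0.136, and 6 had 5 or more of Cartpt and Ppp1r17, against 0.145, counts that depth is not taken out of, but after thinning 11 held both Cartpt and Npy against 11.3 (ratio 0.977, 0.488 to 1.75). Cartpt and Ppp1r17 were together in 41 thinned removed barcodes of tumor 3 against 37.8 (ratio 1.08, 0.778 to 1.47). The thinned overlap of Cartpt and Npy in tumor 2 was the one pair among Cartpt, Ppp1r17 and Npy whose interval in tumors 2 and 3 lay above 1.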

How the data were processed

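Single-cell RNA of 3 TH-MYCN tumors was analysed. The authors deposited raw UMI counts per gene and barcode and, for kept cells, the natural log of 1 plus a count they had corrected for ambient RNA. Doublets and barcodes failing their limits for a tumor had been dropped by them, and no further doublets were taken out. Cell Ranger 3.1.0, Seurat 3.1.5 and mm10 are named in the submitters' processing notes. Levels were computed from raw counts, and corrected counts served as an alternative for tumor-like cells.

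The members and lists were chosen with earlier results of these data known. Clusters were formed in R 4.3.3 with Seurat 5.3.0 (2000 variable genes, members and peptide lists held out, 30 dimensions, resolution 1) and named from at least 3 markers with a fold of 2 in 10% of cells. Sums of at least 10 cells were tested with edgeR 4.0.16 (TMM, filterByExpr, Benjamini-Hochberg over all genes, threshold 0.05), with DESeq2 1.42.0 as an alternative. The fit was checked on simulated counts. These had no tumor effect and no general shift between classes, so the check says nothing of either. A split needed 20 cells per side in each tumor. The rule named up to 3 called genes per direction by fold size, alike in every tumor and at 50 CPM or more in the higher set, and each called list gene. Intervals are exact at 95% and cover counting error only, and a count of 0 is limited at 3 counts. Classes of 1 tumor share an animal: over 9997 genes and 6 classes, deviations from class means correlated at a median of 0.253 within tumors (0.0307 to 0.606) and -0.198 between them. Gene positions follow GENCODE M21. One tumor marker that helped to name clusters is not reported here.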

Additional observations from a re-analysis of the deposited data

How the results depend on the processing

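Of the alternatives computed for all results, 35 moved a value and 115 did not. A count of called genes moved if it passed a set ratio to the main count, and a level or share if its mean shifted by more than the SD between tumors. Leaving out 1 of the 3 tumors cannot shift a mean that far, so those settings could not move a level or share. Nor could any setting for Sst and Penk, which had no UMI in tumor-like cells. The 115 is therefore not a measure of stability. For tumor-like cells against the other classes, DESeq2 gave 181 genes higher and 1849 lower of 9997 tested. A clustering resolution of 0.5 gave 1092 higher of 8829, and the other kept cells summed per tumor gave 967 higher and 2703 lower of 10287. Without tumor 1, 131 genes were higher and 61 lower of 4440 tested. Without tumor 2 these were 1928 and 8 of 12482, and without tumor 3 they were 1714 and 39 of 11856. With the tumor as a replicate block, 3196 were higher and 171 lower. Of the peptide lists, 8 genes were higher and 0 lower of 18 tested, beside 2890 higher of all 9997. DESeq2 gave 0 and 1 of 18, the resolution of 0.5 gave 4 higher of 14, and the summed cells gave 1 and 4 of 13. Leaving out tumors 1, 2 and 3 gave 2 higher of 6, 3 of 19 and 5 of 18. The replicate block changed the calls of Pomc, Nppc, Edn3 and Adm among list genes. For cells with a Ppp1r17 UMI, 6 genes were lower of 5740 tested. DESeq2 gave 1 and no replicate block 0 of the same number, and no filter on low counts gave 10 of 16437. Leaving out a tumor gave from 2 of 8079 (without tumor 1) to 8 of 5002 (without tumor 3). Mean shares of tumor-like cells with a UMI (3.79%, 9.08%, 1.95% and 0.268% for Cartpt, Ppp1r17, Npy and Gal thinned to 500 UMIs) rose without thinning to 11.9%, 25.3%, 5.19% and 0.788%, and to 0.0944% for Vip, and with corrected counts and no thinning to 9.21%, 22.5%, 3.84% and 0.497%. At 1000 UMIs Ppp1r17 reached 16.6% and Gal 0.653%. Corrected counts held no Tac1 UMI in these cells, a level of 0 CPM and a share of 0%. No other mean level in CPM moved by more than its SD between tumors, which is wide: Cartpt fell from 83.6 to 33.7 CPM without tumor 3, and Npy from 44.2 to 27.9 CPM without cells of 5 or more UMIs of it, a setting chosen after seeing the data. At 1000 UMIs per cell 4 genes were lower in cells with Ppp1r17, without Hbb-bt, Hba-a1 and Hba-a2. The cause of these moves was not tested. Depth limited what a single cell shows, at medians of 934 to 1811.5 UMIs.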
